A study of Mus musculus with 11 samples.

Results

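Of the 11 RNA sequencing libraries of cultured adult mouse microglia, 3 held at least 5 FPKM of Acta2, which encodes smooth muscle alpha-actin and is not a microglial gene. FPKM counts fragments per transcript length and sequencing depth, and it allows levels to be compared between genes. The 3 libraries, called marked here, were Control replicate 3, IFN-gamma replicate 1 and replicate 3 of the group given Pam3CSK4 and then IFN-gamma (the combined group). Each was set against the other 2 libraries of its own group, so that 9 libraries in 3 groups were compared. The libraries of a difference thus shared their treatment, but the size of a difference can still depend on that treatment. The 2 Pam3CSK4 libraries had no marked library among them and are given for levels only. The marked libraries were chosen by their Acta2 FPKM, with 10.49 FPKM the lowest value inside the limit and 1.409 FPKM, in Pam3CSK4 replicate 2, the highest outside it. Every difference between marked and other libraries is therefore a description and carries no test.

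The mice were C57BL/6, 6 to 8 weeks old, and their cerebrum gave the cells. Culture lasted 10 to 14 days in medium that held 5 ng/ml TGF-beta1 together with 10 ng/ml M-CSF, the growth factor on which microglia depend. Cultures of the IFN-gamma group were exposed to 20 ng/ml of that cytokine over 24 h. The combined group first received Pam3CSK4, a lipopeptide agonist of Toll-like receptor 2, at 100 ng/ml for 24 h and then the same IFN-gamma treatment. A label field of its replicates 2 and 3 has another last digit in the agonist's name. Control cells received neither agent. The labels do not say whether the replicates came from separate animals or cultures, so p-values measure only the spread between these libraries. Each marked library is also 1 treatment, so that differences among the 3 marked libraries and effects of treatment cannot be told apart.

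Microglia are resident macrophages of the brain and need no contractile fibres or collagen to do their work. Mural cells (pericytes and smooth muscle cells of vessel walls) and fibroblasts of the meninges and vessel sheaths make those proteins. Cells of both kinds attach and divide in culture, and many cultured stromal cells take on actin stress fibres under TGF-beta, a state usually named myofibroblast. The actin-based genes of that state are classic targets of serum response factor (SRF), which binds a short DNA motif named the CArG box.

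Some contractile genes were high with Acta2, which chose the libraries, and others stayed near 0. Whether they share a regulator was not tested. The 250 bases before the transcription starts of the contractile genes were searched for the motif. It was taken as CCNNNNNNGG with at most 1 G or C among the 6 inner bases, a form that reads alike on both strands. RefSeq promoter entries on GRCm38.p6 were found for 11 of the 14 contractile genes listed here; Tagln, Myh11 and Actg2 had none. Acta2 and Myl9, 2 of the 11, held matches, and each held 2. Their sequences are shown because they are the promoters of a gene that chose the libraries and of a myosin light chain that followed it; capitals mark the matches.
Acta2 (chr19:34255374-34255623, minus strand): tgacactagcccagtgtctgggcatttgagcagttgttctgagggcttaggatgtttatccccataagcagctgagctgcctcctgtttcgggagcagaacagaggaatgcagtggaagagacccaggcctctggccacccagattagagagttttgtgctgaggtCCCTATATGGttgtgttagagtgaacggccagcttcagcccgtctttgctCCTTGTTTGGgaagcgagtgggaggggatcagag
Myl9 (chr2:156775214-156775463, plus strand): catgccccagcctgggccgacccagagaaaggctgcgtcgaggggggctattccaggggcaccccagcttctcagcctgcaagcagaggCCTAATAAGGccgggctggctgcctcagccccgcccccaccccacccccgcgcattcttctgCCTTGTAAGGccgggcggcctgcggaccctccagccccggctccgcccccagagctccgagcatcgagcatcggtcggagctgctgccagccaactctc
In Acta2 the matches lay 84 to 75 and 34 to 25 bases before the start, and in Myl9 161 to 152 and 99 to 90 bases before it. Of all 32851 promoter windows of this length, 8.59% held at least 1 match and 0.67% held 2 or more. The stricter CArG box, with no G or C inside, was held by Myl9 and by 1.47% of all windows. A match describes the letters of the window and does not show that a factor bound there.

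The libraries held between 15033702 and 20321017 counts, with 17903428, 16600964 and 19529707 in the marked libraries of Control, IFN-gamma and the combined group. A count fell on 18185, 17381 and 17653 genes in these marked libraries, against 15730 to 17080 in the other 6 of their groups. In each of the 3 groups the marked library had the most genes with a count. Mitochondrial genes took 1.14, 0.943 and 0.707% of counts in the marked libraries and 0.689 to 2.28% in the other 6. Male-linked genes were expressed and Xist was at or near 0 in all 11 libraries, marked or not. The files are bulk RNA, so fewer cells of a type and less RNA per cell cannot be told apart.

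The 6 other libraries of the 3 groups were low in Acta2 but not empty of it. Between 7 and 41 counts fell on Acta2 in each of them, against 27582, 1304 and 365 in the marked libraries of Control, IFN-gamma and the combined group. Tagln, an actin-bundling protein of smooth muscle, stood at 0.5 to 1.09 FPKM in the 6 others. For Acta2 and Tagln the marked libraries were thus set apart by degree.

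Differences were taken on log2(FPKM + 1) after TMM scaling between libraries, as the marked library minus the mean of the other 2 of its group. A gene was called higher when the marked library lay at least 2-fold above the higher of the other 2, and lower when it lay at least 2-fold below the lower. Of 11686 genes with at least 1 FPKM in at least 1 of the 9 libraries, 854 (7.31%) were called higher in the marked library of Control, 269 (2.3%) in that of IFN-gamma and 87 (0.744%) in that of the combined group. Called lower were 44 (0.377%), 18 (0.154%) and 11 (0.0941%) genes. All 3 marked libraries called 70 genes (0.599%) higher, and no gene lower.

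The calls of the 3 groups overlapped. Of the 269 genes called in IFN-gamma replicate 1, 226 (84%) were among the 854 of Control replicate 3, of which they made up 26.5%, and they were 1.93% of all genes. Of the 87 called in combined replicate 3, 71 (81.6%) were among those of Control replicate 3, or 8.31% of these and 0.608% of all genes. The combined and IFN-gamma calls shared 76 genes, 87.4% of the combined and 28.3% of the IFN-gamma calls and 0.65% of all genes. Without combined replicate 3, and so with 2 groups left, 226 genes were called in place of 70.

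Of the 70 shared genes, 25 belong to the 8 stromal lists used here and 2 to lists of other cell types, while 43 stand in no list. The 25, Acta2 among them, stand beside 79 stromal members at 1 FPKM, 53 of these in a marked library only. Of all genes 0.599% were shared. Together the 70 genes took 2.61% of the summed FPKM in Control replicate 3, against 0.0137 and 0.0113% in Control replicates 1 and 2. They took 0.405% in IFN-gamma replicate 1, against 0.00659 and 0.00785% in its replicates 2 and 3. In combined replicate 3 the share was 0.167%, against 0.016 and 0.0178% in replicates 1 and 2. The 114 members of the stromal lists as a whole took 2.33, 0.325 and 0.335% in the marked libraries, against 0.0777 and 0.0836, 0.104 and 0.105, and 0.243 and 0.233% in the other libraries of the same groups.

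The stromal members that reached 1 FPKM need a caution of their own. Of 114 members, 79 reached it in a compared library, and 53 of these did so in a marked library only. A member that passes the limit only where it is high must differ there. List medians are therefore given over all members, with or without expression, beside medians over all 11686 genes of -0.09 in Control, 0.00 in IFN-gamma and 0.01 in the combined group. With scaling by library total the Control median over all genes was 0.09, a shift of more than 0.1.

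**Figure D1:**
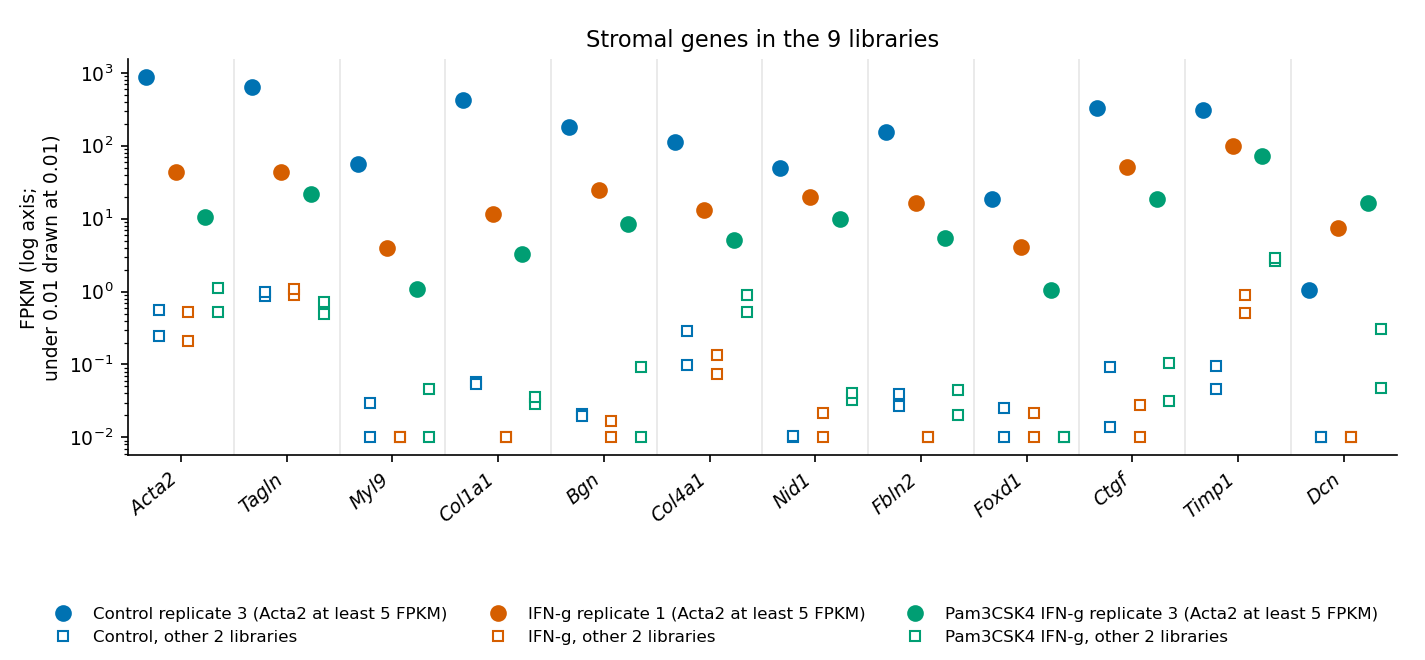
FPKM of 12 stromal genes on a log axis in the 9 compared libraries, with values under 0.01 drawn at 0.01. Filled circles are the marked libraries and open squares the other 2 libraries of each group; all 12 genes lie higher in the marked library, and Dcn alone among them runs upward from Control replicate 3 to combined replicate 3.

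Timp1, a secreted inhibitor of matrix metalloproteinases (chrX:20870166-20874735, mm10), had the largest difference that all 3 groups shared. It reached 306 FPKM in Control replicate 3, against 0.0961 and 0.0457 FPKM in Control replicates 1 and 2. IFN-gamma replicate 1 held 101 FPKM, against 0.503 and 0.909 FPKM in its replicates 2 and 3. Combined replicate 3 held 72.9 FPKM, against 2.61 and 2.85 FPKM in replicates 1 and 2. No marked value came near those of its group, and the difference averaged 6.04 ± 1.80 on the log2 scale (SD over n = 3 groups).

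Contractile genes were higher in the marked libraries, and most strongly in Control replicate 3. The list holds 14 genes of actin filaments and smooth muscle, and its median over all members was 4.11 in Control, 1.37 in IFN-gamma and 0.36 in the combined group. Of its members, 10 reached 1 FPKM, 6 of them in a marked library only. Acta2, Tagln, Myl9 and Cald1 were called in all 3 groups.

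Acta2 (chr19:34241090-34255336) held 865 FPKM in Control replicate 3, against 0.56 and 0.248 FPKM in its replicates 1 and 2. It held 44.1 FPKM in IFN-gamma replicate 1, against 0.21 and 0.521 FPKM, and 10.49 FPKM in combined replicate 3, against 0.529 and 1.13 FPKM. Tagln (chr9:45929628-45936058) held 647, 43.5 and 22.1 FPKM in the 3 marked libraries, with 0.881 and 0.996 FPKM in the other Controls, 0.911 and 1.09 FPKM in the other IFN-gamma libraries and 0.5 and 0.714 FPKM in the other combined ones. Its mean difference was 5.49 ± 2.31 (SD, n = 3 groups). Acta2 was thus 82.4 times and Tagln 29.3 times as high in Control replicate 3 as in combined replicate 3.

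Myl9, a regulatory light chain of myosin, followed with 56, 3.92 and 1.07 FPKM in the marked libraries and at most 0.0467 FPKM in the other 6. Cald1, an actin-binding regulator of contraction, held 30.8, 3.98 and 1.76 FPKM, against at most 0.157 FPKM. Cnn1, calponin of differentiated smooth muscle, held 49.2, 1.53 and 0.13 FPKM in the marked libraries of Control, IFN-gamma and the combined group, and no count in the other 6. Tpm1 and Tpm2, tropomyosins of the actin filament, were called in Control and IFN-gamma.

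Genes of mature smooth muscle split between the libraries and among themselves. Smtn, a cytoskeletal protein of contractile smooth muscle, held 8.21 FPKM in Control replicate 3, against 0.385 and 0.399 FPKM in the other Controls, and Lmod1, an actin filament nucleator of smooth muscle, 7.2 FPKM against 0. Both were called in Control and not in the other groups, where Smtn held 2.33 FPKM in IFN-gamma replicate 1, against 1.78 and 1.8 FPKM, and 1.52 FPKM in combined replicate 3, against 1.41 and 0.966 FPKM. All 10 contractile members at 1 FPKM were called in Control, beside 7.31% of all genes. Of these 10, 6 reached 1 FPKM in a marked library only, and Acta2 itself chose the library. The 4 contractile genes that did not reach 1 FPKM were near 0. Myh11, the smooth muscle myosin heavy chain, stayed at 0.0926, 0.0182 and 0.0463 FPKM in the marked libraries, against at most 0.0224 FPKM in the other 6. Mylk, Synpo2 and Des, also genes of mature muscle, reached no more than 0.41 FPKM in any library. Actg2, the enteric smooth muscle actin, held 203, 3.25 and 0.505 FPKM in the marked libraries, and Acta1, the skeletal actin, 24.5, 0 and 0.465 FPKM in the marked libraries of Control, IFN-gamma and the combined group. These actins are near copies of Acta2 in sequence, and how shared reads were counted is not given in the sources used here, so their values are uncertain.

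Genes of fibrillar collagen matrix had the highest median of the stromal lists in Control and IFN-gamma, but not in the combined group. It was 5.50 in Control, 2.16 in IFN-gamma and 0.67 in the combined group over all 18 members, of which 16 reached 1 FPKM, 14 of them in a marked library only. Called in all 3 groups were Col1a1, Col1a2, Col5a2, Col8a1, Loxl1, Loxl2 and Bgn. They encode collagen chains, cross-linking oxidases and a small proteoglycan of collagen fibrils.

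Col1a1 (chr11:94936224-94953042), the main chain of type I collagen, held 430.4, 11.4 and 3.26 FPKM in the marked libraries of Control, IFN-gamma and the combined group. The other 6 libraries held at most 0.0576 FPKM. Bgn held 178, 24.3 and 8.5 FPKM in the marked libraries and at most 0.0916 FPKM in the others. The collagen fell off more steeply than the proteoglycan across the marked libraries, with Col1a1 132 times and Bgn 21 times as high in Control replicate 3 as in combined replicate 3.

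Lox and Postn, 2 members of this list, were also expressed outside the marked libraries. Lox, a collagen cross-linking enzyme, held 274 FPKM in Control replicate 3, against 1.07 and 1.5 FPKM in the other Controls, and 27.1 FPKM in IFN-gamma replicate 1, against 0.38 and 0.418 FPKM. In the combined group it held 90.8 FPKM in replicate 3, against 85.6 and 77.6 FPKM in replicates 1 and 2, and it held 176 and 180 FPKM in the Pam3CSK4 libraries. Lox was therefore high in libraries where Acta2 and Col1a1 were low. Postn, a matrix protein, held 6.95 FPKM in Control replicate 3, against 4.52 and 5.18 FPKM in the other Controls.

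Basement membrane genes showed the same order, with a list median of 3.19, 1.21 and 0.75 over 9 members, of which 8 reached 1 FPKM, 6 in a marked library only. Col4a1, Col4a2, Nid1 and Hspg2, the type IV collagen chains, nidogen and perlecan that build the sheet, were called in all 3 groups. Nid1 held 49, 19.8 and 9.81 FPKM in the marked libraries and at most 0.0407 FPKM in the other 6. It varied only 5 times across the marked libraries. Col4a1 held 113, 13.3 and 5.03 FPKM, against 0.292 and 0.0986 FPKM in the other Controls, 0.137 and 0.0752 FPKM in the other IFN-gamma libraries and 0.527 and 0.9 FPKM in the other combined ones. Nid2, the paralogous nidogen, went the other way in Control, with 5.25 FPKM in replicate 3 against 6.46 and 8.12 FPKM.

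Targets of TGF-beta and SRF had list medians of 3.55, 1.69 and 1.25, and all 12 members reached 1 FPKM, 6 of them in a marked library only. Ctgf and Cyr61, secreted matricellular proteins induced by cell tension, were nearly silent outside the marked libraries. Ctgf held 325, 51.4 and 18.3 FPKM in the marked libraries and at most 0.103 FPKM in the other 6. Cyr61 held 260, 37.5 and 12.3 FPKM, against at most 0.0736 FPKM. Thbs1 and Ltbp2, which binds latent TGF-beta, were also called in all 3 groups.

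Thbs1, an activator of latent TGF-beta, was also expressed elsewhere. It held 841, 102 and 66.9 FPKM in the marked libraries, against 5.55 and 4.72 FPKM in the other Controls, 7.44 and 6.84 FPKM in the other IFN-gamma libraries and 19.6 and 17.3 FPKM in the other combined ones. Tgfbi, an adhesion protein named for its induction by TGF-beta, differed little. It held 93 FPKM in Control replicate 3, against 69.5 and 70 FPKM in the other Controls.

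Fibroblast identity genes split. Fbln2, a matrix glycoprotein, and Serpinf1, a secreted serpin, were called in all 3 groups, with 153, 16.5 and 5.48 FPKM and with 99.9, 30.9 and 7.54 FPKM in the marked libraries. The transcription factor Twist1 held 13.3, 2.46 and 0.127 FPKM, and no count in the other 6. Lum, Pdgfra, Dpt, Mfap4, Twist2 and Tcf21, which also mark fibroblasts, reached no more than 0.348 FPKM in any compared library. The median over the 17 members was 0.90, 0.44 and 0.06, with 10 members at 1 FPKM and 8 of these in a marked library only.

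Dcn, a proteoglycan of collagen fibrils and among the usual leading genes of fibroblasts (chr10:97479500-97518162), ran against Acta2. It held 1.05, 7.43 and 16.4 FPKM in the marked libraries of Control, IFN-gamma and the combined group. The other Control and IFN-gamma libraries held no count, and the other combined libraries 0.0476 and 0.307 FPKM. Set against Acta2 at 865, 44.1 and 10.49 FPKM, the library with the most Acta2 had the least Dcn of the 3.

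Meningeal genes were limited to transcription factors and retinoid genes. Foxd1, a forkhead factor of stromal precursors, was called in all 3 groups with 18.5, 4.09 and 1.04 FPKM in the marked libraries and at most 0.0257 FPKM in the other 6. Foxc1, a forkhead factor needed for the meninges, held 10, 1.19 and 0.13 FPKM in the marked libraries of Control, IFN-gamma and the combined group. Crabp2, a carrier of retinoic acid, held 26.3, 3.83 and 0.612 FPKM, and Aldh1a2, which makes retinoic acid, 4.27, 8.28 and 0.95 FPKM. Ptgds and Slc22a6, made by arachnoid and other meningeal cells, were at 0 in all 11 libraries. Slc6a13, a meningeal transporter, was at 0 in Control replicate 3 and IFN-gamma replicate 1 and at 0.475 FPKM in combined replicate 3, against 0.474 and 0.25 FPKM in the other combined libraries. The median over 14 members was 0.24, 0.17 and 0.04, and all 6 members that reached 1 FPKM did so in a marked library only.

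Of 13 pericyte genes, 5 reached 1 FPKM, and 2 of these, Pdgfrb and Ndufa4l2, did so in a marked library only. Vtn was at 0 in all 11 libraries, and Rgs5, Kcnj8, Abcc9, Higd1b and Atp13a5 reached no more than 0.0778 FPKM in any of them. Pdgfrb, a receptor on pericytes and fibroblasts alike, held 6.79, 3.12 and 0.44 FPKM in the marked libraries and at most 0.116 FPKM in the other 6. Cspg4 was expressed in every library, at 57.5 FPKM in Control replicate 3 against 30.1 and 43.1 FPKM, but at 9.83 FPKM in IFN-gamma replicate 1 against 16.5 and 15.8 FPKM. Ndufa4l2, a mitochondrial protein induced by low oxygen and high in brain pericytes, held 29.7 FPKM in Control replicate 3 against 0 in both other Controls, and 0.188 and 0.0534 FPKM in the marked libraries of IFN-gamma and the combined group. Mcam, an adhesion molecule of mural and endothelial cells, held 3.42 FPKM in Control replicate 3, against 1.08 and 0.784 FPKM. The median over the 13 members was 0.01, 0.04 and 0.00.

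Collagen, basement membrane and actin filament genes other than Acta2 were thus high in the marked libraries, Col1a1 and Tagln in all 3. The defining genes of smooth muscle and pericytes were mixed. Cnn1 and Pdgfrb were called in Control and IFN-gamma, and Smtn, Lmod1 and Ndufa4l2 in Control only. Myh11, Rgs5, Kcnj8, Abcc9 and Vtn were at or near 0 in all 3 marked libraries, as were the arachnoid genes Ptgds and Slc22a6. No cell type was assigned. Whether 1 kind of cell or several carried the transcripts was not tested.

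**Figure D2:**
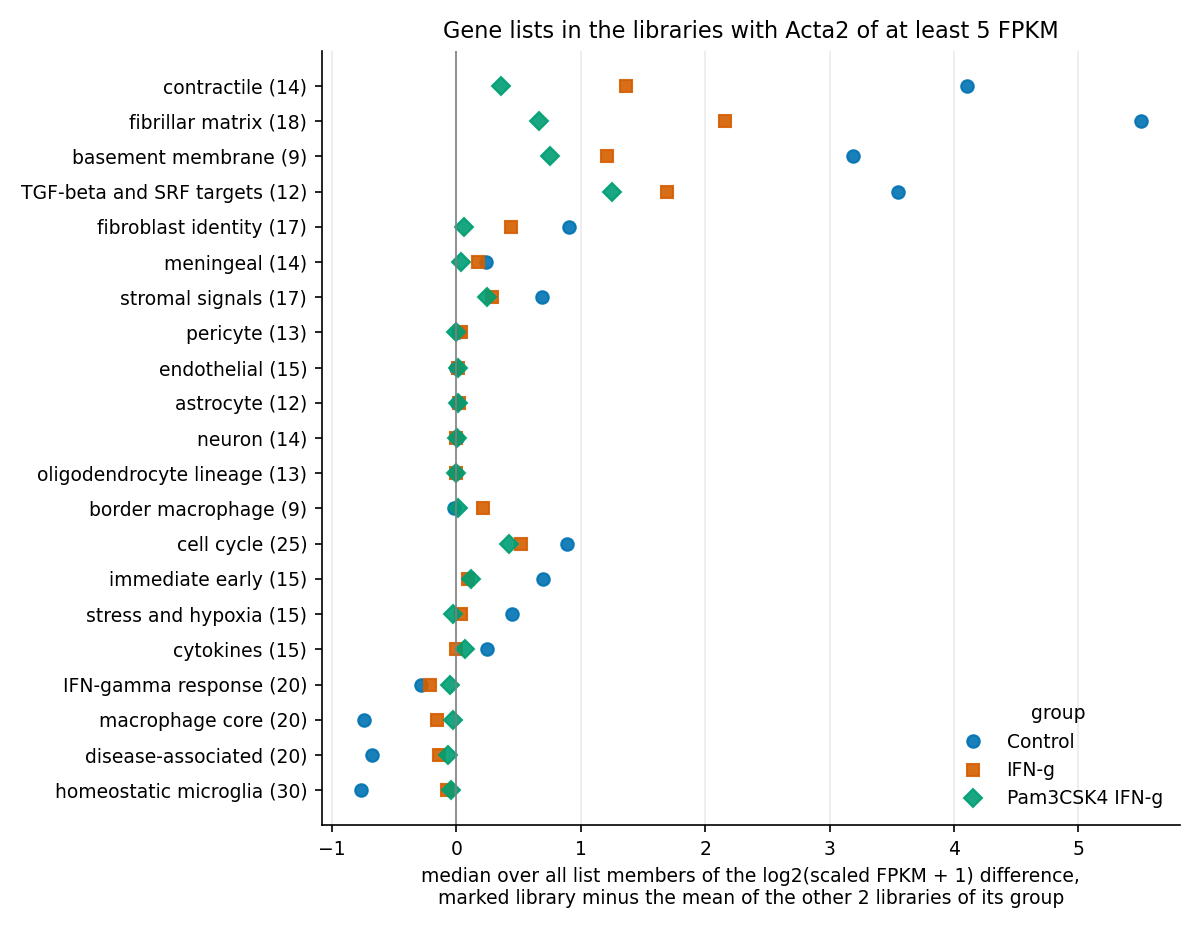
Median difference over all members of 21 gene lists, on log2(scaled FPKM + 1), as the marked library minus the mean of the other 2 libraries of its group; the number of members stands in brackets. Matrix and contractile lists lie to the right, with Control highest (5.50 for fibrillar matrix), pericyte, endothelial, astrocyte, neuron and oligodendrocyte lists near 0, and the microglial lists of Control at -0.68 to -0.77.

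Few markers of other brain cells reached 1 FPKM, and some of these were expressed in marked and other libraries alike. Of 15 endothelial genes, 4 reached it. Cdh5, the cadherin of vessel walls, was called in all 3 groups with 13.7, 1.97 and 1.63 FPKM in the marked libraries and at most 0.25 FPKM in the other 6. Esam, a junction protein, was called in Control with 13.6 FPKM against 2.04 and 0.76 FPKM. Cldn5, Erg, Robo4 and Slco1a4, which define brain endothelium, were at 0 in all 11 libraries. The summed level of the list was 40.6, 27.7 and 6.07 FPKM in the marked libraries and 3.63 to 30.6 FPKM in the other 6. Flt1, a receptor for vascular growth factors, went the other way in Control, with 11 FPKM in replicate 3 against 15.7 and 16.4 FPKM.

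Of 12 astrocyte genes, 2 reached 1 FPKM, and the gap junction gene Gja1 was called, with 30.8 FPKM in Control replicate 3 against 0 in both other Controls, and 1.38 FPKM in IFN-gamma replicate 1 against 0.0517 and 0 FPKM. Gfap and Aqp4 reached no more than 0.0808 FPKM in any library. Of 14 neuronal genes, 2 reached 1 FPKM, and the tubulin gene Tubb3 was called in all 3 groups, with 6.88, 10.7 and 3.48 FPKM in the marked libraries and at most 0.398 FPKM in the other 6, while Snap25 and Syt1 reached no more than 0.0327 FPKM. Krt19, an epithelial keratin, held 7.51, 0.697 and 0.0658 FPKM and no count in the other 6, while Epcam was at 0 in all 3 marked libraries. Of 13 oligodendrocyte genes, 3 reached 1 FPKM and none was called, beside 7.31%, 2.3% and 0.744% of all genes. Mbp, myelin basic protein, held 4.31 FPKM in Control replicate 3, against 5.81 and 5.25 FPKM, and Cnp, another myelin protein, 4.93 FPKM against 6.77 and 5.67 FPKM.

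Genes of the macrophages of the brain's borders differed in IFN-gamma. All 5 of their 9 genes that reached 1 FPKM lay above both other IFN-gamma libraries in replicate 1, beside 35.9% of all genes, and 1 of these reached it in a marked library only. The list summed to 16.2 FPKM in IFN-gamma replicate 1, against 9.42 and 10.7 FPKM. In Control it summed to 32.4 FPKM in replicate 3, against 42.4 and 24.9 FPKM, and in the combined group to 60.7 FPKM in replicate 3, against 60.6 and 56.6 FPKM. Cbr2 was called in Control with 3.91 FPKM against 0.24 and 0.0325 FPKM, and F13a1 in IFN-gamma with 2.64 FPKM against 0.341 and 0.337 FPKM. Mrc1, Lyve1 and Cd163 reached no more than 0.876 FPKM in any library.

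The remaining genes with the largest shared differences were not in a list of matrix or contraction. Ptx3, a secreted pattern recognition protein, held 39.3, 22.9 and 17 FPKM in the marked libraries and at most 0.0479 FPKM in the other 6, and its difference of 4.62 ± 0.44 (SD, n = 3 groups) varied little. Tnc, a matrix glycoprotein of healing tissue, held 16.6, 9.84 and 9.28 FPKM, against at most 0.0313 FPKM, with a difference of 3.58 ± 0.28. These genes differed far less among the marked libraries than Acta2, whose difference was 5.59 ± 3.20.

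Cpe, an enzyme that trims peptide hormones, held 129, 47.6 and 13.9 FPKM in the marked libraries and at most 0.121 FPKM in the other 6. Cyp1b1, a cytochrome P450, held 47.3, 11.8 and 9.41 FPKM, against at most 0.163 FPKM. S100a6, a calcium-binding protein, was the least specific of this set, with 139.7, 61 and 18.15 FPKM against 0.976 to 4.24 FPKM.

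Most of the 70 shared genes kept the order of Acta2. Their levels ran from Control replicate 3 through IFN-gamma replicate 1 to combined replicate 3 in 57 of them. IFN-gamma replicate 1 was highest for 10 genes, among them Thbd, an anticoagulant receptor, Sod3, a secreted antioxidant enzyme, Tubb3 and Col8a1. Combined replicate 3 was highest for Serpinb2, a serpin of the plasminogen system.

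Ccl7, a chemokine that draws monocytes, held 15.6, 61 and 21.2 FPKM in the marked libraries. The other libraries of the same groups held 0.083 and 0.237, 1.74 and 2.4, and 1.98 and 2.77 FPKM. Lif, a cytokine of the interleukin 6 family, held 19.9, 4 and 4.87 FPKM, against 0.015 and 0, 0.0482 and 0.0597, and 1.62 and 1.74 FPKM. Both were called in all 3 groups.

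Csf1 encodes M-CSF, the ligand of the microglial receptor Csf1r. Its difference was 0.36, 1.04 and 2.13 in Control, IFN-gamma and the combined group, a rising order. Its FPKM fell in that order in the marked libraries, as for Acta2, and fell in the other libraries too. Csf1 held 54.7 FPKM in Control replicate 3, against 30.8 and 42.3 FPKM, and 18.9 FPKM in IFN-gamma replicate 1, against 8.46 and 8.34 FPKM. In combined replicate 3 it held 9.49 FPKM, against 1.68 and 1.18 FPKM. Il34, the other ligand of that receptor, reached no more than 0.258 FPKM.

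**Figure D3:**
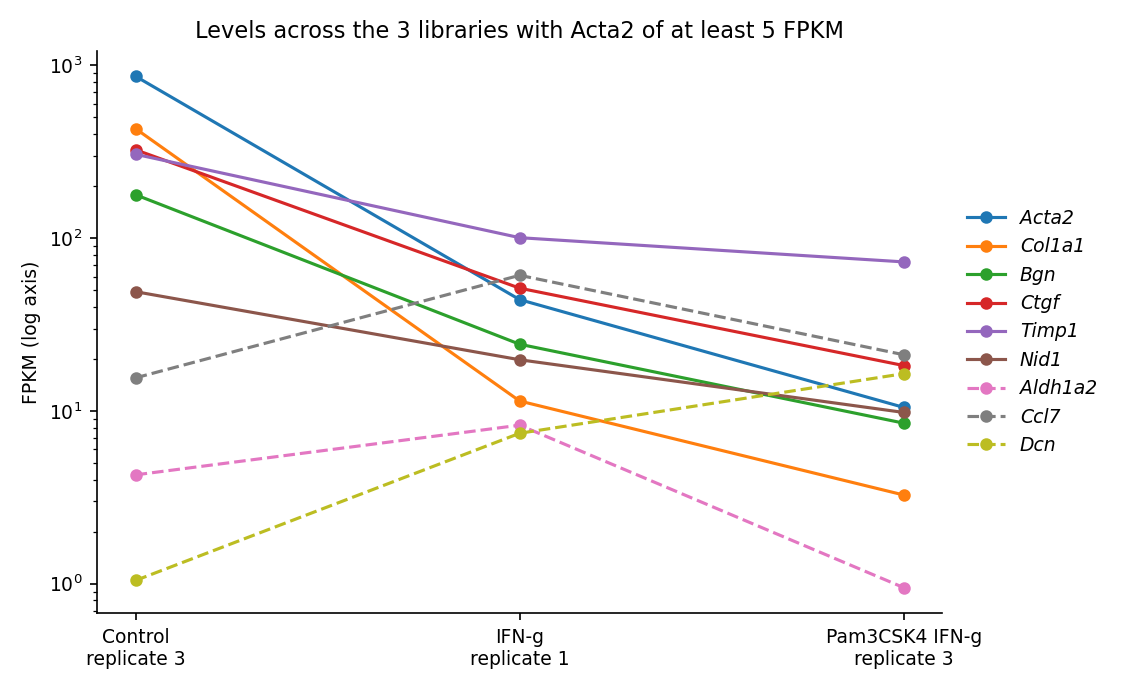
FPKM of 9 genes on a log axis in the 3 marked libraries, in order of falling Acta2. Solid lines are genes that fall throughout, such as Acta2 (865, 44.1 and 10.49 FPKM), and dashed lines those that do not, such as Dcn (1.05, 7.43 and 16.4 FPKM).

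Some genes set a single marked library apart. Control replicate 3 held 144 FPKM of Ptgs2, the inducible cyclooxygenase, against 0.241 and 0.135 FPKM in the other Controls. The same gene held 65.7 FPKM in IFN-gamma replicate 1, against 39.9 and 30 FPKM, and 415 FPKM in combined replicate 3, against 511 and 465 FPKM. Ptgs2 was thus high in every treated library and in 1 of 3 Controls.

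Other genes of Control replicate 3 were low in the rest. Gjb2, a gap junction gene, held 46.4 FPKM there, against 0 in both other Controls. Sema7a, a membrane-bound semaphorin, held 51.9 FPKM, and Csrp2, a muscle LIM protein, 55 FPKM, against at most 0.137 FPKM. In the other marked libraries Gjb2 held 0.0501 and 0.0426 FPKM. IFN-gamma replicate 1 alone held Prelp, a matrix protein, at 6.04 FPKM against no count in its replicates 2 and 3, and Arg1, arginase 1, at 15.8 FPKM against 1.34 and 1.62 FPKM.

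The differences of combined replicate 3 alone were smaller. Spp1, the secreted protein osteopontin, held 193 FPKM there, against 93 and 88.7 FPKM in replicates 1 and 2. Plagl2, a zinc finger factor, held 10.3 FPKM, against 1.65 and 3.48 FPKM. Tgtp1, an interferon-induced GTPase, held 10.5 FPKM, against 3.07 and 3.27 FPKM.

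Microglial genes were lower in Control replicate 3 by a similar amount and lay close to the other libraries in the remaining groups. Of 29 homeostatic genes with at least 1 FPKM, 26 lay below both other Controls, as did 51.9% of all genes there, with a median difference of -0.78 and quartiles of -0.91 and -0.65. The IFN-gamma and combined medians were -0.09 and -0.05, with 13 and 14 of 29 genes below both other libraries, beside 33% and 33.7% of all genes. Below in all 3 groups were 8 of 29 genes, beside 9.58% of all genes. With scaling by library total the Control median was -0.54.

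Csf1r, the M-CSF receptor, held 377 FPKM in Control replicate 3, against 550 and 513 FPKM in replicates 1 and 2. In IFN-gamma it held 438 FPKM in replicate 1, against 475 and 494 FPKM, and in the combined group 200.2 FPKM in replicate 3, against 191 and 180.1 FPKM. In Control, Cx3cr1, the fractalkine receptor, held 212 FPKM in replicate 3, against 302 and 317 FPKM. Sall1, a transcription factor of microglial identity, held 60.1 FPKM, against 86.8 and 93.1 FPKM.

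P2ry12, a purine receptor of resting microglia, did not separate. It held 16.8 FPKM in Control replicate 3, against 12.6 and 37.3 FPKM, so that the marked value lay between the others. Tmem119, a microglial membrane protein, held 74.3 FPKM in Control replicate 3, against 131 and 111 FPKM. In IFN-gamma it lay on the other side, with 23.6 FPKM in replicate 1 against 14.2 and 14.8 FPKM.

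Called lower in Control were Siglech, a sialic acid receptor, and Tgfbr1, a TGF-beta receptor subunit. Tgfbr1 held 33.6 FPKM in Control replicate 3, against 82.4 and 92.6 FPKM, with a difference of -1.58. Il10ra, the interleukin 10 receptor, was called lower in IFN-gamma, with 17.2 FPKM in replicate 1 against 62.6 and 64 FPKM. In Control it held 16.1 FPKM in replicate 3, against 8.22 and 22.1 FPKM. Of the 29 homeostatic genes, 2 were called lower in Control, 1 in IFN-gamma and 0 in the combined group, beside 0.377%, 0.154% and 0.0941% of all genes. None of the 29 was called lower in more than 1 group. With so few genes called lower at all, this says little about the list.

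Macrophage genes shared with other myeloid cells behaved alike, with medians of -0.74, -0.16 and -0.03 over 20 genes, and disease-associated genes had -0.68, -0.14 and -0.07 over 20 genes. Spi1, the myeloid master factor, held 61.3 FPKM in Control replicate 3, against 96.3 and 85.1 FPKM, and Aif1, also named IBA1, 30 FPKM against 46.3 and 41.3 FPKM. A few members lay higher in Control. Cd14, the coreceptor for lipopolysaccharide, held 578 FPKM in Control replicate 3, against 353 and 325 FPKM, and Timp2, another metalloproteinase inhibitor, 343 FPKM against 241 and 260 FPKM. Spp1 held 1449 FPKM, against 1061 and 1032 FPKM.

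Summed over the 70 members of the 3 microglial lists, the share of FPKM was 17.4% in Control replicate 3, against 22.4 and 22.4% in replicates 1 and 2. It was 18.6% in IFN-gamma replicate 1, against 18.5 and 18.9%. In combined replicate 3 it was 14.5%, against 13.5 and 13.3%. Only the marked Control library had a lower share than both others of its group.

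**Figure D4:**
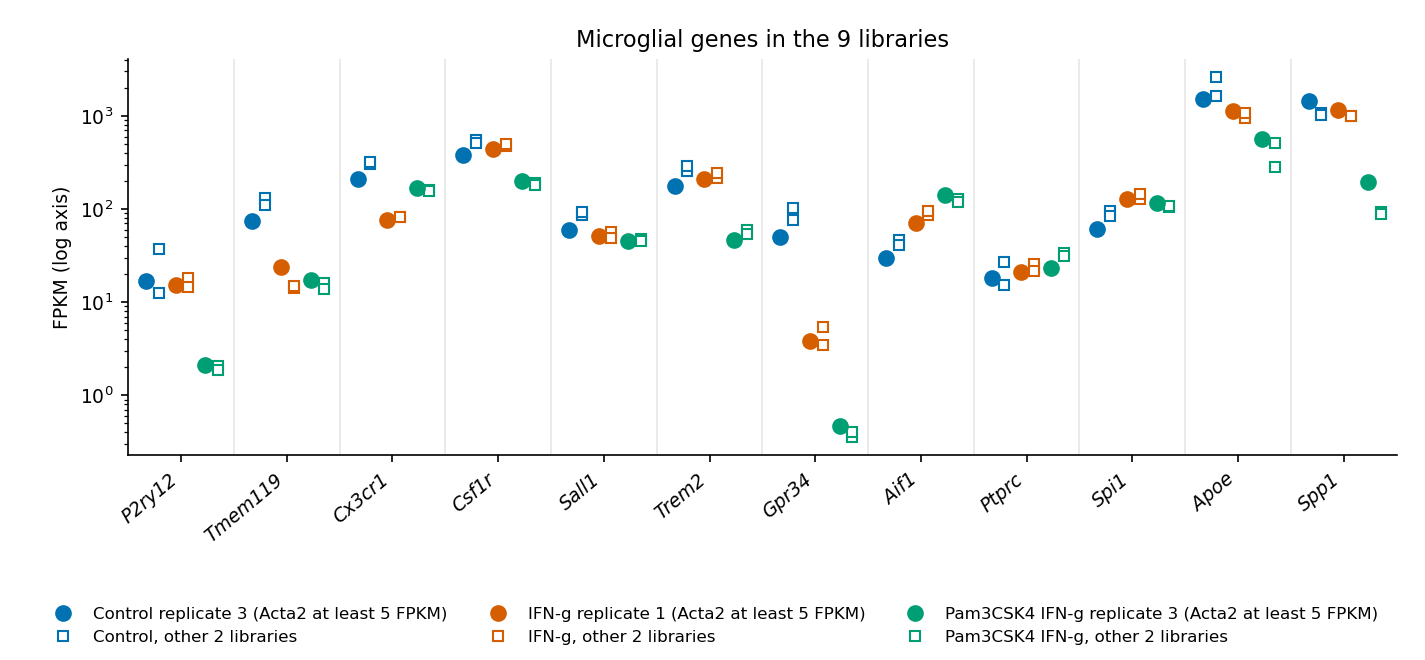
FPKM of 12 microglial genes on a log axis in the 9 compared libraries, with marked libraries as filled circles and the other 2 of each group as open squares. In Control most filled circles lie below both squares (Csf1r 377 against 550 and 513 FPKM), while P2ry12 and Ptprc lie between them and Spp1 above; in the other groups most symbols lie close together.

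Cell cycle genes were modestly higher in all marked libraries. The median over 25 genes was 0.89 in Control, 0.52 in IFN-gamma and 0.42 in the combined group, and 19 of 25 lay above both other libraries in all 3 groups, beside 12.2% of all genes. By group, 23, 23 and 22 of 25 did so, beside 33.3%, 35.9% and 39% of all genes. Called were 8 of 25 in Control, 1 in IFN-gamma and none in the combined group, beside 7.31%, 2.3% and 0.744% of all genes. Of the 25, 2 reached 1 FPKM in a marked library only, so these counts are partly set by the filter. Rrm2, a subunit of ribonucleotide reductase, held 14.5 FPKM in Control replicate 3, against 2.56 and 2.74 FPKM. It held 7.13 FPKM in IFN-gamma replicate 1, against 2.3 and 2.55 FPKM, and 6.8 FPKM in combined replicate 3, against 2.76 and 3.06 FPKM.

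Other cell cycle genes were less even. Top2a, a topoisomerase of dividing cells, held 10.3, 4.52 and 8.11 FPKM in the marked libraries, against 2.42 and 3.56, 2.28 and 2.46, and 5.62 and 5.12 FPKM in the others. Mki67 lay above both others in Control and IFN-gamma, but in the combined group it held 5.97 FPKM in replicate 3, against 6.42 and 4.57 FPKM. Pcna, the replication clamp, held 40.8 FPKM in Control replicate 3, against 48.8 and 46.6 FPKM. The stromal lists were higher in the same libraries, and which cells carried the cell cycle transcripts was not tested.

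Immediate early and stress genes varied mainly in Control replicate 3. Fosl1, an AP-1 subunit, was called in Control and IFN-gamma, with 14.1 FPKM in Control replicate 3 against 0.234 and 0.333 FPKM, and 3.53 FPKM in IFN-gamma replicate 1 against 0.251 and 0.155 FPKM. Atf3, another member of that family, was called lower in Control, with 14 FPKM against 73.6 and 58.2 FPKM. Asns, asparagine synthetase, held 32.7 FPKM in Control replicate 3, against 0.461 and 0.657 FPKM, and Ddit4, a stress-induced inhibitor of mTOR, 35 FPKM against 3.51 and 2.93 FPKM. In the other marked libraries Asns and Ddit4 were not called.

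Cytokine genes differed in direction between groups. Il6 was called in Control, with 7.22 FPKM in replicate 3 against 0.488 and 0.464 FPKM, and in IFN-gamma, with 3.46 FPKM in replicate 1 against 0.0786 and 0.0162 FPKM. In the combined group it held 13.8 FPKM in replicate 3, against 18.8 and 19 FPKM. Il12b, a subunit of interleukin 12, was called lower in the combined group, with 80.5 FPKM against 227 and 177 FPKM. Interferon-gamma response genes lay slightly lower in the marked libraries. Their median over 20 genes was -0.29, -0.21 and -0.05, and 12 of 20 lay below both other libraries in each group, beside 51.9%, 33% and 33.7% of all genes. Below in all 3 groups were 5 of 20, beside 9.58% of all genes. In IFN-gamma and combined cultures all 20 lay within 0.42 of the other libraries.

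The treatments were then compared over the labelled groups, with and without the 3 marked libraries, to see how far they move the results. Counts of 10938 genes were tested with edgeR's quasi-likelihood test, Benjamini-Hochberg adjustment over all of them and a threshold of 0.05. All 11 libraries had a common biological coefficient of variation of 0.303, and the 8 libraries left after removal one of 0.121. Without the 3 libraries, 2508 genes were higher and 2663 lower in IFN-gamma than in Control, against 2189 and 2361 with them. The combined group against Control gave 2958 and 2879, against 2556 and 2646, and the combined group against IFN-gamma 2251 and 2140, against 1856 and 1884.

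No gene was called in opposite directions with and without the 3 libraries. Of the IFN-gamma calls with all libraries, 4063 were shared and alike in direction, which was 89.3% of these and 78.6% of the calls without the 3. For the combined group against Control 4743 were shared, 91.2 and 81.3%, and against IFN-gamma 3382, 90.4 and 77%. The difference between the fits was not tested, and removal also leaves fewer libraries. The libraries removed were chosen by their Acta2 level, so a smaller spread without them is partly built in.

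The stromal lists moved with the 3 libraries. In IFN-gamma against Control, the contractile median was -0.12 without the 3 libraries and -3.65 with all 11. Fibrillar matrix had -1.16 and -3.71 and basement membrane -0.77 and -2.76, all below 0. Fibroblast identity and stromal signals had medians of 0 without the 3 libraries, and of -1.24 and -1.73 with all 11. The pericyte median, over 4 tested genes, was -2.19 without and -1.23 with them. Other lists moved too, such as 2 tested astrocyte genes in the combined group against Control, with 4.82 without and -1.01 with them. For the combined group against Control the median change of 9 tested contractile genes was 0.56 without the 3 libraries and -4.59 with all 11. With all 11, none of the 9 passed the test upward and 1 downward, beside 23.4% and 24.2% of all genes; without the 3, 3 passed upward and none downward, beside 27% and 26.3%. Basement membrane genes had medians of 2.03 without and -3.63 with the 3 libraries, with 4 of 7 upward and 1 downward without them, and none upward and 1 downward with them. The limit of 1 FPKM in at least 2 libraries was set over all 11, so the marked libraries helped some genes to pass it. Nid1 held 0 and 0.0105 FPKM in Control replicates 1 and 2, against 0.0328 and 0.0407 FPKM in combined replicates 1 and 2. Col4a2 held more, with 0.571 and 0.129 FPKM against 1.41 and 1.35 FPKM. List medians without the 3 libraries thus rest partly on genes near 0.

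Timp1 showed the change for a single gene. Without the marked libraries it rose by 3.27 ± 0.60 (SE) on the log2 scale in IFN-gamma over Control (edgeR adjusted p = 0.00273) and by 5.23 ± 0.48 in the combined group over Control (edgeR adjusted p = 4.81e-05). Timp1 levels behind this were 0.503 and 0.909 FPKM in IFN-gamma and 2.61 and 2.85 FPKM in the combined group, against 0.0961 and 0.0457 FPKM in Control. With all 11 libraries the estimates were -1.40 ± 2.42 (edgeR adjusted p = 0.667) and -1.76 ± 2.44 (edgeR adjusted p = 0.579), so that the sign was reversed and neither passed. Timp1 was named for its difference in the marked libraries, and these were picked by their Acta2 level. Their removal thus lowers its spread by design, and the p-values without them are no separate evidence of a treatment effect.

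More cell cycle genes passed without the 3 libraries, as did more of all genes. In the combined group against Control, 12 of 24 tested genes were higher and 4 lower without them, beside 27% and 26.3% of all genes, and 3 higher and 1 lower with all 11, beside 23.4% and 24.2%. In IFN-gamma against Control the counts were 6 higher and 8 lower without them, beside 22.9% and 24.3% of all genes, and 2 higher and 3 lower with them, beside 20% and 21.6%. Mki67 rose by 0.64 ± 0.16 in the combined group over Control without them (edgeR adjusted p = 0.0112), and was estimated at 0.19 ± 0.36 with them (edgeR adjusted p = 0.682).

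Homeostatic genes were mostly lower in the combined group. Of 29 homeostatic genes, 23 were lower in the combined group than in Control in each fit, with medians of -2.22 without and -1.92 with the 3 libraries, beside 26.3% and 24.2% of all genes. In IFN-gamma against Control, 16 were lower without them and 11 with all libraries, beside 24.3% and 21.6% of all genes, and 6 were higher in each, beside 22.9% and 20%. Cx3cr1 fell by 1.86 ± 0.07 in IFN-gamma relative to Control without them (edgeR adjusted p = 5.94e-07) and by 1.70 ± 0.18 with them (edgeR adjusted p = 8e-05).

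Against IFN-gamma, the combined group had 23 homeostatic genes lower and 1 higher without the 3 libraries, beside 19.6% and 20.6% of all genes, and 22 lower and 1 higher with them, beside 17.2% and 17%. All 20 interferon-gamma response genes were higher in IFN-gamma than in Control in both fits. Csf1, higher in each marked library than in the others of its group, fell in the combined group relative to Control in both fits. It fell by 4.63 ± 0.23 without the 3 libraries (edgeR adjusted p = 1.36e-06) and fell by 3.27 ± 0.74 with them (edgeR adjusted p = 0.00529).

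**Figure D5:**
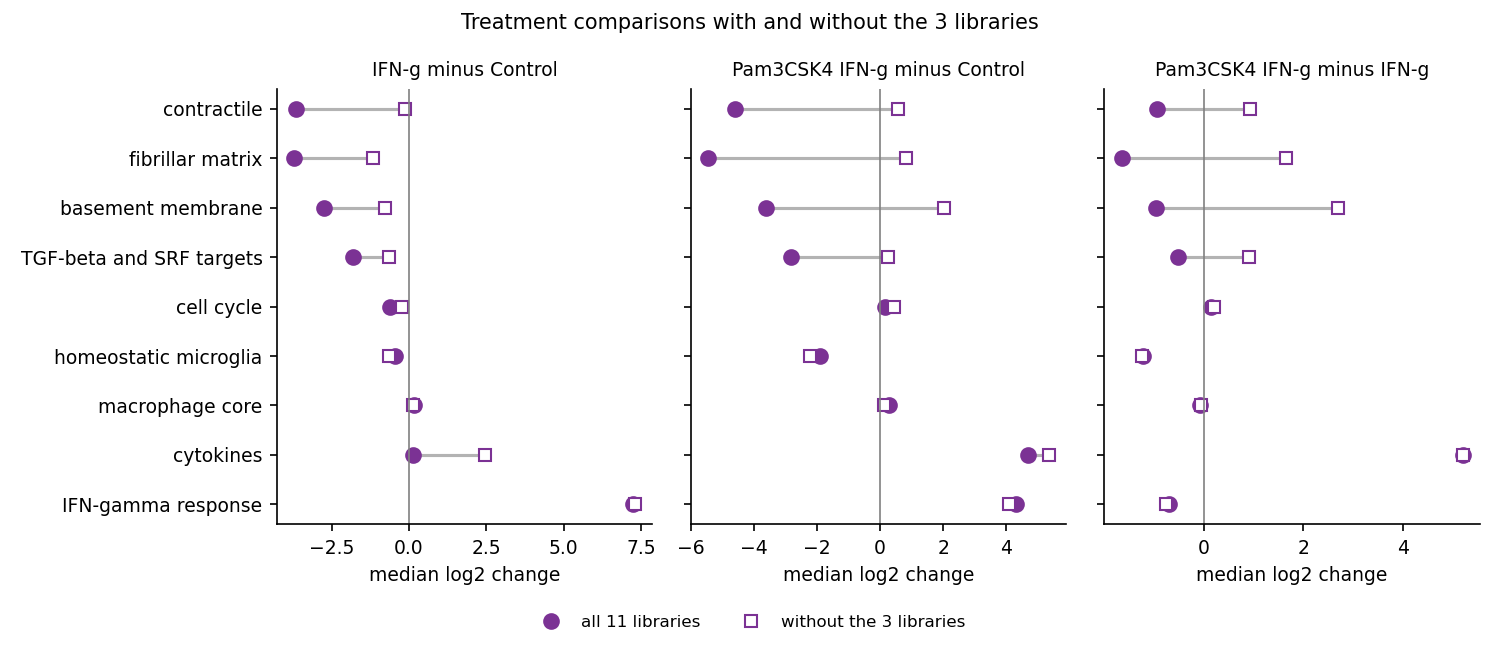
Median log2 change of 9 gene lists in 3 treatment comparisons, fitted by edgeR to all 11 libraries (filled circles) and without the 3 marked libraries (open squares). Contractile and matrix lists in the combined group lie below 0 with all libraries and above 0 without the 3 (contractile against Control -4.59 and 0.56). Homeostatic and interferon-gamma response lists stay on their side of 0. Some matrix members, such as Nid1, lay near 0 FPKM outside the marked libraries.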

How the data were processed

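RNA of cultured microglia was sequenced in 11 libraries, and the deposited table gives a count and an FPKM value per gene and library for 34745 genes. The authors' tools were TopHat2 2.1.0, Cufflinks 2.1.1 and Cuffdiff, with the mm10 build, per the submitters' processing notes, which give no role. The counting program, annotation and strand setting were not given in the sources used here. The deposited FPKM equals the count divided by a gene-specific constant and the total of the library, with a largest relative deviation of 0.000478 over 13242 genes with a count in all 11 libraries.

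FPKM was scaled with TMM factors and taken as log2(FPKM + 1), a scale that understates changes of low genes. Genes with at least 1 FPKM in at least 1 of 9 libraries (11686) were described. The marked libraries, the 29 lists (415 members, all matched by symbol) and the rules were chosen with earlier results of these data known. Named were Acta2, Col1a1 and Tagln; in each list the 4 members highest in the marked libraries and those called in all 3 groups; the 12 largest shared differences; the 8 largest of each marked library alone; a panel of 21 defining markers; and further list members given as examples, chosen after their values were seen. Predicted genes, pseudogenes and repeated symbols were not named.

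Treatments were compared on counts over the labelled groups (3 Control, 3 IFN-gamma, 2 Pam3CSK4 and 3 combined libraries) with edgeR 4.0.16 and limma 3.58.1 in R 4.3.3, for 10938 genes with at least 1 FPKM in at least 2 libraries. DESeq2 1.42.0 was an alternative. Python 3.11.15, pandas 2.3.3 and matplotlib 3.10.9 were used elsewhere. The procedures were tested on simulated data. Other scalings, pseudocounts, filters and fold limits, a replicate block and the removal of each library were tried.

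A few genes that these rules name are not reported here.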

Additional observations from a re-analysis of the deposited data

Results flagged for a closer look

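The mitochondrial gene mt-Nd4l differed in opposite directions between groups. Its difference was 2.68 in the combined group, where replicate 3 held 5.17 FPKM against 0 in both other libraries. It was -2.83 in Control, where replicate 3 held no count against 5.15 and 7.45 FPKM. The difference between the groups was not tested, and mt-Nd4l overlaps mt-Nd4, so its counts are uncertain.

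The 2 Pam3CSK4 libraries, which hold no marked library, exceeded Control replicates 1 and 2 in the summed FPKM of 3 lists. Fibrillar matrix genes summed to 177 and 182 FPKM in Pam3CSK4 replicates 1 and 2, against at most 6.95 FPKM in those Controls, with Lox alone at 176 and 180 FPKM. TGF-beta and SRF targets summed to 852 and 871 FPKM, against at most 153 FPKM, with Tgfbi at 732 and 748 FPKM. Border macrophage genes summed to 103 and 99.2 FPKM, against at most 42.4 FPKM, with Ms4a7 at 94.9 and 89.4 FPKM. In each list 1 gene made up most of the sum.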

How the results depend on the processing

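The count of genes called in all 3 groups was 302 with a pseudocount of 0.1 and 142 with a fold limit of 1.5, and 70 to 226 when single libraries were left out, 226 being without combined replicate 3. Library total scaling gave 68 such genes, of which 67 were shared with the 70, and DESeq2 size factors 67, all shared. Genes lower in all 3 groups numbered 1 with the 1.5-fold limit and 0 to 1 with single libraries left out. Genes higher in Control numbered 370 when 1 FPKM was asked in 3 libraries, 1298 with the 1.5-fold limit and 854 to 923 with libraries left out. Lower in Control were 29 with library total scaling, 131 with the pseudocount of 0.1, 635 with the 1.5-fold limit and 44 to 113 with libraries left out. For IFN-gamma the higher counts were 676 (pseudocount 0.1), 140 (3-library filter), 509 (1.5-fold) and 269 to 314, and the lower 62 (pseudocount 0.1), 72 (1.5-fold) and 18 to 38. For the combined group the higher counts were 351 (pseudocount 0.1), 187 (1.5-fold) and 87 to 122, and the lower 39, 49 and 11 to 27.

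The contractile median over members past the filter in Control was 5.31 with library total scaling, 5.11 with DESeq2 size factors, 8.25 with the pseudocount of 0.1, 4.72 with the 3-library filter and 4.11 with no filter. In IFN-gamma it was 4.57, 2.32 and 1.37 under the last 3 of these, and in the combined group 1.88, 1.05 and 0.36, with 0.64 to 0.76 when libraries were left out. The homeostatic median in Control was -0.54 with library total scaling. The border macrophage median in Control was -0.6347 to 0.06625 with libraries left out, above 0 without Control replicate 1. The cause was not tested.

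Counts of treatment calls stayed within 1.5 times under the alternatives run. With the replicate block they were 2047 higher and 2122 lower for IFN-gamma against Control, 2428 and 2467 for the combined group against Control, and 1654 and 1660 for the combined group against IFN-gamma. No label pairs the libraries by replicate number. Over 15 pairs of the same number the correlation of deviations from the group mean ran from -0.72 to 0.72, and 6 pairs were over 0.1. Between marked libraries it was 0.715 to 0.81, and the lowest value joined Control replicate 1 to the marked IFN-gamma replicate 1. The marked libraries thus weigh on these correlations, which cannot decide whether the numbers pair the libraries. DESeq2 gave 2425 and 2487, 2755 and 2737, and 2085 and 2103.

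Single genes turned in sign. For IFN-gamma against Control, Acta2 was 0.42 with the replicate block and -9.40 to 5.22 with single libraries left out, above 0 without Control replicate 3. Timp1 was 3.27 without the 3 marked libraries, 2.58 with the block and -6.95 to 8.83 with single libraries left out, highest without Control replicate 3. P2ry12 was -0.68 to 0.26, above 0 without Control replicate 2. For the combined group against Control, Acta2 was 1.09 without the 3 and -8.22 to 3.35 with single libraries left out, and Timp1 was 5.23 without the 3, 0.04901 with the block and -5.01 to 8.46, both highest without Control replicate 3. For the combined group against IFN-gamma, Acta2 was 1.21 without the 3 and -4.11 to 3.46 with single libraries left out, and Timp1 1.95 and -3.59 to 5.18, both highest without IFN-gamma replicate 1. Timp1 was also 0.17 without combined replicate 1 and 0.17 without combined replicate 2.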
